A study of Mus musculus with 2 samples.

Results

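The aminoacyl-tRNA synthetases and the accessory proteins of the cytosolic synthetase complex were described in granulocyte-monocyte progenitors (GMP), bone marrow precursors of the neutrophil and monocyte lineages. The members were the protein-coding genes whose GENCODE M21 symbol follows the naming pattern of the family, from Aars to Yars2, together with Eprs, Ears2, Farsa, Farsb, Fars2, Pars2, Aimp1, Aimp2 and Eef1e1. This rule gave 40 genes of the 21474 protein-coding genes measured: 20 cytosolic synthetase genes, 17 mitochondrial ones, whose symbols end in 2, and 3 accessory proteins, among which Aimp2 belongs to the cytosolic complex despite its symbol. Cells came from male C57BL/6J mice aged 5 to 6 weeks, the labels name no genetic change or treatment, and each of the 2 libraries was made from the total RNA of 100 pooled cells with spike-ins added. The libraries, called replicate 1 and replicate 2 after the labels, held 40509954 and 35675702 expected counts. They carry 1 donor identifier, and the labels do not state whether the cells came from separate animals, so each SD below is a spread between these libraries and may be technical. There was 1 group, so no comparison between conditions was possible and no value below carries a test.

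Aminoacyl-tRNA synthetases join each amino acid to its transfer RNA, which then carries it to the ribosome. Class I and class II enzymes have unrelated catalytic folds, and most amino acids are served by separate nuclear genes for the cytosol and the mitochondrion. In the cytosol a number of synthetases assemble with the scaffold proteins encoded by Aimp1, Aimp2 and Eef1e1 into the multi-synthetase complex, while others act free of it. Gars and Kars each encode both forms of their enzyme, and mitochondria make glutaminyl-tRNA from the product of Ears2 by an amidotransferase rather than with an enzyme of its own.

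The libraries carried the markers of the labelled cell type. All 11 progenitor markers examined reached 1 TPM, a unit that corrects counts for transcript length and scales each library to the same total, in both libraries, with Mpo at 6332 and 6602 TPM in replicates 1 and 2. Ly6a and Il7r, genes of stem cells and lymphoid progenitors, had 0 counts in both, which allows up to 0.0741 and 0.0841 CPM (counts scaled to the library total without a length correction). Flt3, a receptor of earlier progenitors that was listed with them, was at 2.31 and 5.95 TPM, and Slamf1 had 1 count in each library. Of the 4 stromal and endothelial markers Pdgfrb was at 2.47 and 3.90 TPM, and Col1a1 and Col1a2 had 0 counts in both. Markers of late neutrophils were uneven between the libraries, with a summed level of 86.7 TPM over 6 genes in replicate 1 and 5.20 TPM in replicate 2. Only 2 of these 6 markers reached 1 TPM in both libraries. The 3 T cell markers had 0 counts in both libraries, and the 3 B cell markers had 1 count in all. The summed level of the 7 erythroid markers was 0.62 and 1.91 TPM, and that of the 5 macrophage markers was 4.06 and 4.33 TPM. Because the samples were pools of cells, fewer expressing cells and less RNA per cell cannot be told apart.

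All 40 members were expressed. Each reached 1 TPM in both libraries, against 45.6% of all protein-coding genes, and 34 reached 5 TPM in both, against 35.2%. On average over the libraries 31 members reached 10 TPM, against 28.4% of all protein-coding genes. The member with the fewest counts, Aars2, still had 183 in replicate 1 and 279 in replicate 2. Cytosolic synthetases had a median of 38.5 TPM (37.4 in replicate 1 and 34.5 in replicate 2), and mitochondrial synthetases other than Lars2 had a median of 9.60 TPM (8.65 and 12.7). On transcripts annotated as protein-coding alone these medians were 26.2 and 6.06 TPM. For scale, protein-coding genes of 1 TPM or more in both libraries had a median of 14.3 TPM. The 77 mitochondrial ribosomal protein genes, which serve the same translation system as the mitochondrial synthetases, had a median of 36.2 TPM (35.0 and 35.1), above the mitochondrial synthetases in both libraries.

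**Figure D1:**
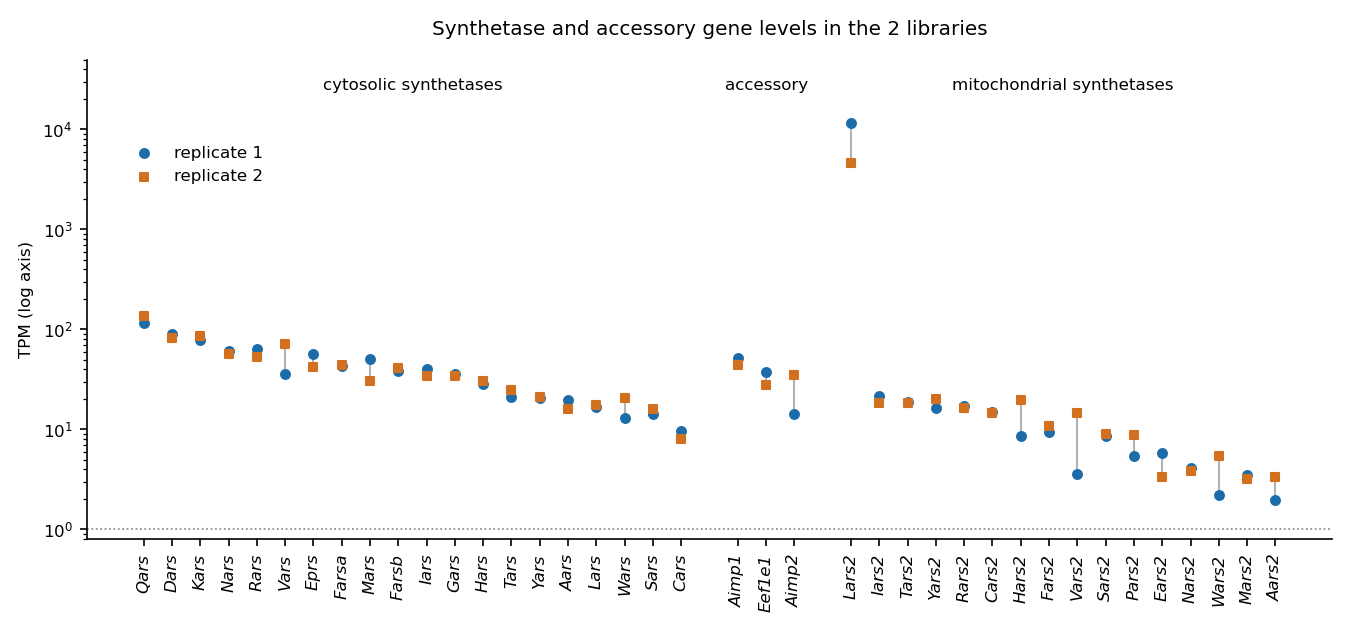
Level of 39 members in the 2 libraries, as TPM on a log axis, with circles for replicate 1, squares for replicate 2 and a line joining the values of a gene. Lars2 stands at 11523 and 4643 TPM, while the other mitochondrial genes shown lie between 2.65 and 19.9 TPM on average and the cytosolic ones between 8.78 and 125 TPM.

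The 3 highest cytosolic genes, Qars, Dars and Kars, belong to the multi-synthetase complex. Its 11 genes had a median of 47.7 TPM (51.5 in replicate 1 and 41.9 in replicate 2), and the 12 free cytosolic synthetases a median of 26.0 TPM (24.7 and 27.4). The ratio of these medians was 1.83, with 2.09 in replicate 1 and 1.53 in replicate 2. Qars, the glutaminyl enzyme of the complex (chromosome 9, 108507706 to 108515941, GRCm38), stood at 115 and 136 TPM, the highest level of any cytosolic member and rank 484 among protein-coding genes. Dars, the aspartyl enzyme (chromosome 1, 128363707 to 128417368), was at 90.1 and 81.8 TPM. Kars, the lysyl enzyme (chromosome 8, 111993443 to 112011323), was at 77.5 and 85.5 TPM. Dars and Kars thus exchanged places between the libraries, whereas Qars was above both in each. Rars, for arginine, stood at 63.7 and 53.2 TPM, and Eprs, a fused enzyme for glutamate and proline, at 56.9 and 41.9 TPM. Mars, for methionine, was at 50.1 and 30.2 TPM, and Iars, for isoleucine, at 40.1 and 34.4 TPM. Lars, the leucyl enzyme of the complex, stood apart from these at 16.6 and 17.5 TPM, below every other gene of the complex except Aimp2 in replicate 1.

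Among the accessory proteins, Aimp1 (chromosome 3, 132660499 to 132684370) was at 51.5 and 43.8 TPM and Eef1e1 (chromosome 13, 38644207 to 38659058) at 37.6 and 27.7 TPM. Aimp2 (chromosome 5, 143902704 to 143909847) differed most between the libraries, with 14.3 TPM from 393 counts in replicate 1 and 34.9 TPM from 880 counts in replicate 2. It was therefore the lowest gene of the complex in replicate 1 and above Lars, Eef1e1, Mars and Iars in replicate 2.

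Among the free cytosolic enzymes the asparaginyl gene Nars was highest on average and in replicate 1, at 61.2 and 56.4 TPM. Vars, the valyl enzyme (chromosome 17, 35000987 to 35016322), was at 36.1 and 72.1 TPM, so it was above Nars in replicate 2 and below it in replicate 1. Farsa and Farsb, the 2 subunits of the phenylalanyl enzyme, were close to each other, at 43.5 and 43.7 TPM for Farsa and at 38.6 and 41.1 TPM for Farsb. Gars stood at 35.7 and 34.6 TPM and Hars, for histidine, at 28.4 and 30.2 TPM. A lower set followed, with Tars (threonine) at 21.1 and 24.5 TPM, Yars (tyrosine) at 20.4 and 21.1 TPM and Aars (alanine) at 19.8 and 16.03 TPM. Wars, for tryptophan, was at 13.1 and 20.7 TPM, and Sars, for serine, at 14.2 and 16.1 TPM. Cars, the cysteinyl enzyme, was the lowest cytosolic gene in both libraries, at 9.61 and 7.94 TPM. By structural class, the 9 class I genes had a median of 37.2 TPM and the 10 class II genes a median of 37.5 TPM, Eprs being left out because it joins both classes. On protein-coding transcripts alone these medians were 17.1 and 30.6 TPM. Genes with a single deposited transcript, a coding one, keep all their TPM on this measure. These were Gars, Hars, Nars and Tars in class II and only Lars in class I. How far the number of annotated transcripts enters the class medians was not tested.

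The mitochondrial synthetases described here, Lars2 apart, spread from 19.9 TPM down to 2.65 TPM on average. Among the highest were Iars2 at 21.4 and 18.4 TPM, Tars2 at 18.8 and 18.5 TPM and Yars2 at 16.2 and 20.2 TPM. The ranges of these 3 over the libraries overlapped. Rars2 was at 17.0 and 16.5 TPM, Cars2 at 14.8 in both, and Hars2 at 8.63 and 19.6 TPM. Fars2 stood at 9.48 and 10.9 TPM, Sars2 at 8.66 and 8.95 TPM, Vars2 at 3.55 and 14.5 TPM and Pars2 at 5.36 and 8.75 TPM. The lowest were Ears2 at 5.80 and 3.34 TPM, Nars2 at 4.13 and 3.85 TPM, Wars2 at 2.22 and 5.48 TPM, Mars2 at 3.49 and 3.22 TPM and Aars2 at 1.95 and 3.34 TPM. Ears2 feeds both glutamyl-tRNA and, through the amidotransferase subunits Qrsl1, Gatb and Gatc, mitochondrial glutaminyl-tRNA. Gatc was at 24.1 and 23.2 TPM, Gatb at 21.3 and 8.30 TPM and Qrsl1 at 9.91 and 14.4 TPM, each above Ears2 in both libraries.

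For most amino acids served by a separate gene in each compartment, the cytosolic gene was the higher of the pair. With leucine set apart, this held in both libraries for 15 of 16 amino acids, taking the mean of Farsa and Farsb for phenylalanine and Eprs for both glutamate and proline. The ratio of mean TPM was 14.7 for asparagine (14.8 in replicate 1 and 14.6 in replicate 2), 11.96 for methionine (14.3 and 9.39) and 10.8 for glutamate (9.80 and 12.5). On protein-coding transcripts these ratios were 14.7, 4.98 and 18.3, the last with 0.25 TPM of coding Ears2 in replicate 2. Over all transcripts the ratio was 6.996 for proline, 6.77 for alanine and 6.01 for valine. In these 3 the ratio in replicate 1 was over 10 and that in replicate 2 under 5. Tryptophan, phenylalanine and arginine followed, among others, with ratios from 4.38 to 3.49. Histidine had a ratio of 2.08, which was 3.29 in replicate 1 and 1.54 in replicate 2, and 4.68 on protein-coding transcripts. Isoleucine was at 1.87, and at 2.67 on protein-coding transcripts. The lowest ratios above 1 were those of serine at 1.72, threonine at 1.22 and tyrosine at 1.14. For tyrosine, Yars and Yars2 were at 21.1 and 20.2 TPM in replicate 2, closer than the spread of Yars2 between the libraries. Cysteine was the reverse: Cars2 stood at 14.8 TPM in both libraries and Cars at 9.61 and 7.94 TPM, a cytosolic to mitochondrial ratio of 0.593. On transcripts annotated as protein-coding alone, the cytosolic gene again led in both libraries for 15 of 16 amino acids, with cysteine the exception.

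**Figure D2:**
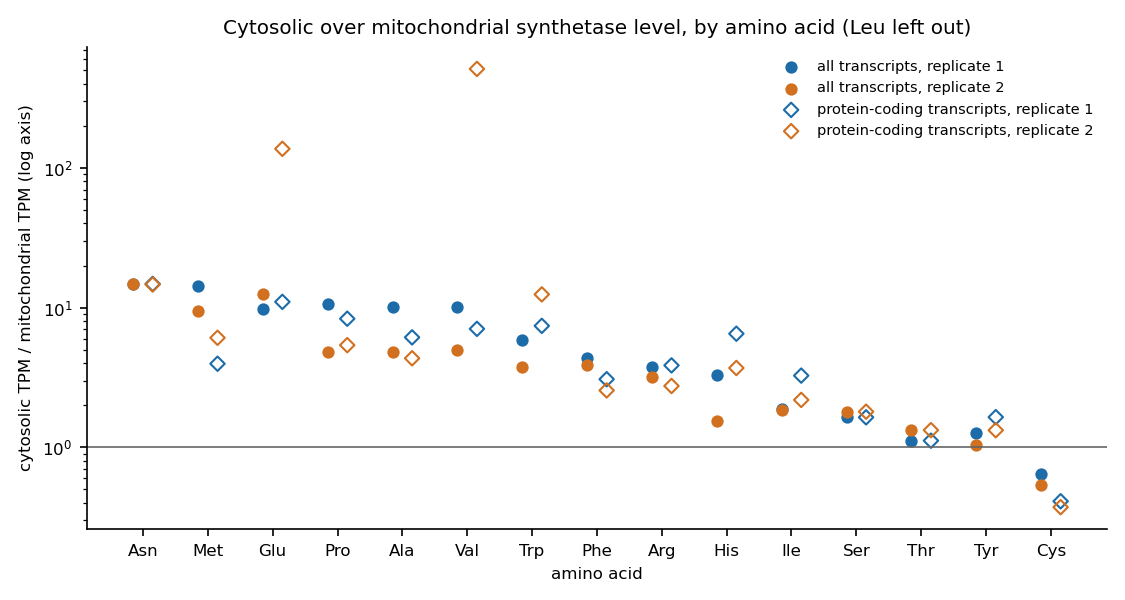
Ratio of cytosolic to mitochondrial TPM for 15 amino acids on a log axis, in each library, from all transcripts of the genes (filled circles) and from protein-coding transcripts alone (open diamonds). Cysteine lies below 1 in both libraries and on both measures, and the highest open diamonds, for Val and Glu in replicate 2, rest on 0.09 TPM of coding Vars2 and 0.25 TPM of coding Ears2.

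Lars2, the mitochondrial leucyl enzyme (chromosome 9, 123366927 to 123462666, plus strand), was apart from the family in level. It had 1259476 expected counts in replicate 1 and 453125 in replicate 2, which made 11523 and 4643 TPM and 3.11% and 1.27% of all counts. Among protein-coding genes it ranked 1 in replicate 1 and 5 in replicate 2. The cytosolic gene Lars was at 0.0014 of its level in replicate 1 and 0.0038 in replicate 2. Lars2 alone held most of the family's TPM, since the other 39 members summed to 1118 TPM in replicate 1 and 1162 TPM in replicate 2. Its ratio between the libraries, replicate 2 over replicate 1, was 0.409 in CPM (95% exact binomial interval 0.407 to 0.410, covering counting error only). Beside this, Gm42418 and Gm26917, annotated as long non-coding genes, held 31.5% and 0.383% of counts in replicate 1. They held 29.4% and 0.669% in replicate 2, and which RNA their reads come from was not tested. The deposited tables assign all Lars2 counts to 1 transcript of 3881 bases, so its transcript shares carry no information. GENCODE M21 lists 9 Lars2 transcripts, and its version of this one, Lars2-201, is 3894 bases long with the coding sequence at bases 200 to 2905, followed by 989 bases of 3' untranslated region. Positions are those of the M21 version. A sequence search against the M21 transcripts of other genes found 72 bases of that region, at positions 3278 to 3349, that match Gm15564-202 at 98.6% identity, and 196 aligned bases from position 3163 that match AA474408-201 at 80.1%. The gene Gm15564 was listed at 0 TPM in both libraries and the gene AA474408 at 0.01 and 0.66 TPM. Where on the Lars2 transcript its reads lie cannot be read from gene and transcript totals, and whether they come from its message was not tested.

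Transcript shares were set beside those of protein-coding genes of 1 TPM or more with several transcripts. Of the 40 members, 12 have 1 transcript in the deposited tables, among them Gars, Hars, Lars, Nars, Tars, Aimp1 and Eef1e1. Of the 28 with 2 or more, 19 had the same leading transcript in both libraries, against 69.1% of protein-coding genes of 1 TPM or more with several transcripts. In 6 of the 28 the transcript of highest mean share was not annotated as protein-coding, against 14.1%. Among them were Ears2, Mars, Qars, Vars and Vars2. Over the family without Lars2, protein-coding transcripts held 76.7% of TPM in replicate 1 and 76.3% in replicate 2, and transcripts with a retained intron held 14.2% and 16.6%. These pooled shares include the members with 1 transcript, and the same shares over all protein-coding genes were not computed. Protein-coding transcripts held at least 90% of the gene's TPM in both libraries in 10 of the 28, among them Dars, Kars, Iars, Rars2, Tars2 and Wars. Among protein-coding genes of 1 TPM or more with several transcripts, 38.9% did so. They held under 50% in both in 3 of the 28, among them Qars and Vars2, against 11.8%. The counts for the same leading transcript and for the 90% and 50% limits were thus near the shares over all such genes.

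Qars, the highest cytosolic gene by gene TPM, was lower on its coding transcripts. Its leading transcript in both libraries was Qars-205, a 462-base transcript annotated with a retained intron, at 25.1% and 33.3% of the gene's TPM. The coding transcripts Qars-203 and Qars-201 held 12.2% and 2.96% in replicate 1 and 8.83% and 10.8% in replicate 2. Together the coding transcripts made 17.4 and 26.6 TPM, which placed Qars 17th of the 40 members on that measure. A further Qars transcript of 2150 bases, at 16.6% and 7.58% of TPM, is not in M21 and counted as non-coding here, and one at 14.2% and 9.38% is assigned to the neighbouring gene Qrich1 in M21. In reads rather than TPM the order was different: Qars-203 had 1193 and 914 expected counts and Qars-205 had 256 and 362, since a short transcript needs fewer reads for the same TPM.

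In Mars and Vars the leading transcript differed between the libraries. Mars-204, a 467-base transcript with a retained intron, led in replicate 1 at 43.6% and was at 16.6% in replicate 2. The complete coding transcript Mars-201 was at 7.26% in replicate 1 and led in replicate 2 at 49.4%. Vars-203, with a retained intron, led Vars in replicate 1 at 38.8%. In replicate 2 the lead went to Vars-207, a partial coding transcript of 388 bases, at 0% in replicate 1 and 35.97% in replicate 2, although it held only 158 of the 3592 counts of the gene there. The complete coding transcript Vars-201 held 23.8% and 24.8%. Vars2-206, with a retained intron, led Vars2 in both libraries at 39.7% and 40.1%, while the coding transcript Vars2-201 was at 34.3% in replicate 1 and 0.62% in replicate 2. In TPM that coding transcript was at 1.22 and 0.09.

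Other mitochondrial members showed the same kinds of difference. Ears2-201, the coding form, held 70.1% in replicate 1 and 7.54% in replicate 2, where Ears2-202, with a retained intron, held 62.8%. Tars2 shifted between coding forms, with Tars2-201 at 7.82% in replicate 1 and 65.1% in replicate 2 and Tars2-202 at 44.37% and 23.95%. In the accessory gene Aimp2 the lead passed between 2 coding forms, from Aimp2-202 at 81.2% in replicate 1 to Aimp2-201 at 59.7% in replicate 2. In TPM, Aimp2-202 was at 11.6 and 11.9 and Aimp2-201 at 2.69 and 20.8. The remaining members whose leading transcript changed were Sars, Wars, Wars2 and Yars2.

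**Figure D3:**
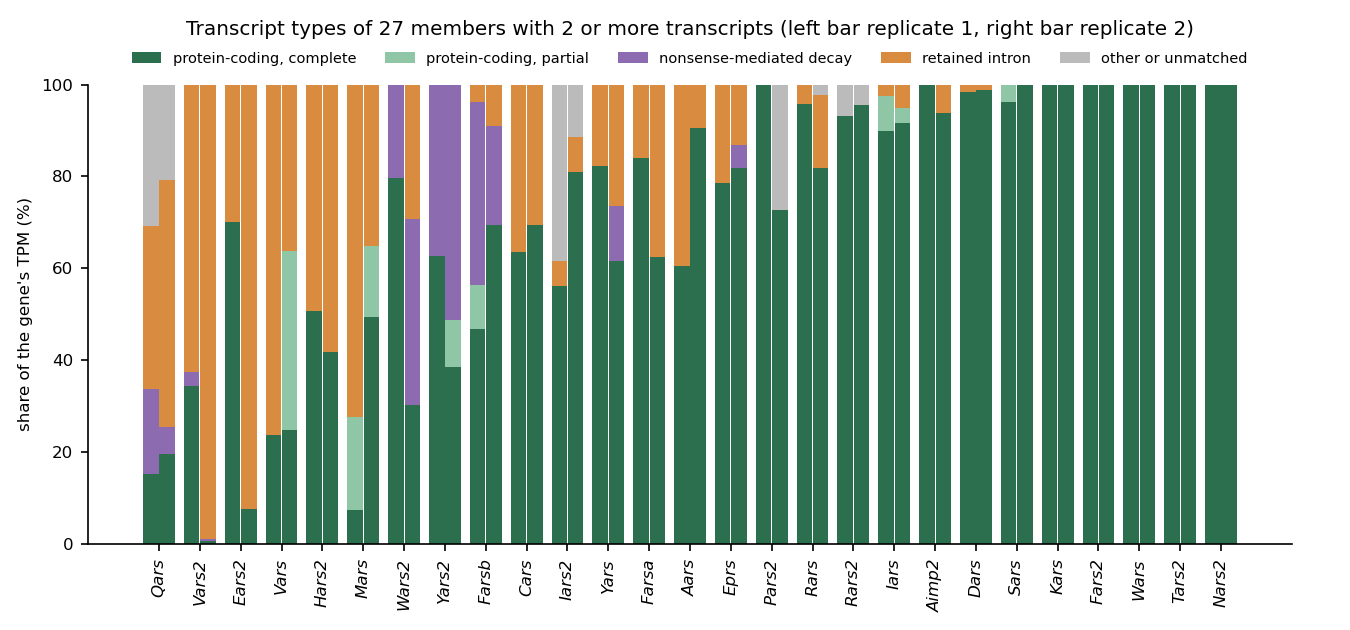
Share of each gene's TPM, in percent, by annotated transcript type for 27 members with 2 or more transcripts, with replicate 1 as the left bar and replicate 2 as the right bar. Genes are ordered by their coding share, complete and partial. Qars and Vars2 are low in both libraries and Kars, Fars2, Wars, Tars2 and Nars2 are coding throughout.

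Most members differed by less than 2-fold between the libraries. Among the 31 members of 10 TPM or more, 3 differed by over 2-fold on the log2(TPM + 1) scale, against 3.13% of protein-coding genes of that level. Aimp2 was higher in replicate 2 by 1.23 log2 units and Hars2 by 1.09, against 1.85% of genes in that direction. Lars2 was lower in replicate 2, with a log2 difference of -1.31, against 1.28% in that direction. Of the 31 members, 15 were higher in replicate 2, where 54.3% of genes of that level were. Without a limit on the level, 5 of 40 members were over 2-fold apart, Vars2 and Wars2 being added, against 4.99% of genes of 1 TPM or more in both. Across the 39 members without Lars2, the log2(TPM + 1) values of the libraries had a Pearson correlation of 0.925 and a Spearman correlation of 0.913, and the 9782 protein-coding genes of 1 TPM or more in both had 0.958 and 0.944. These correlations are across genes, which are not independent replicates.

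CPM values, which do not depend on the transcript lengths assigned in each library, gave smaller differences for Vars, Vars2, Wars2 and Mars. Vars was 1.996-fold higher in replicate 2 in TPM and 1.501-fold higher in CPM (95% exact binomial interval 1.43 to 1.58). Vars2 was 4.08-fold higher in TPM and 2.40-fold in CPM (2.10 to 2.75), and Wars2 was 2.47-fold and 1.71-fold (1.46 to 2.00). For Mars the replicate 2 over replicate 1 ratio was 0.604 in TPM and 0.812 in CPM (0.756 to 0.871). Of the 31 members of 10 TPM or more, 3 were over 2-fold apart in CPM, against 1.74% of genes, and these were again Aimp2, Hars2 and Lars2. Aimp2 and Hars2 stood at 2.54-fold (2.26 to 2.87) and 2.18-fold (1.94 to 2.45) in CPM. Aars and Iars2 had opposite directions in the 2 units, with TPM ratios of 0.810 and 0.862 and CPM ratios of 1.19 and 1.15. Yars did so too, with a TPM ratio of 1.04 and a CPM ratio of 0.851 (0.786 to 0.921). The count interval included 1 for 12 members, among them Gars, Farsa, Sars, Rars2 and Cars2, and excluded 1 for 28 of 40, where it excluded 1 for 73% of protein-coding genes of 1 TPM or more in both. These intervals describe reads and not animals. They use library totals alone for scaling, and no interval was computed under the alternative scalings named below.

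**Figure D4:**
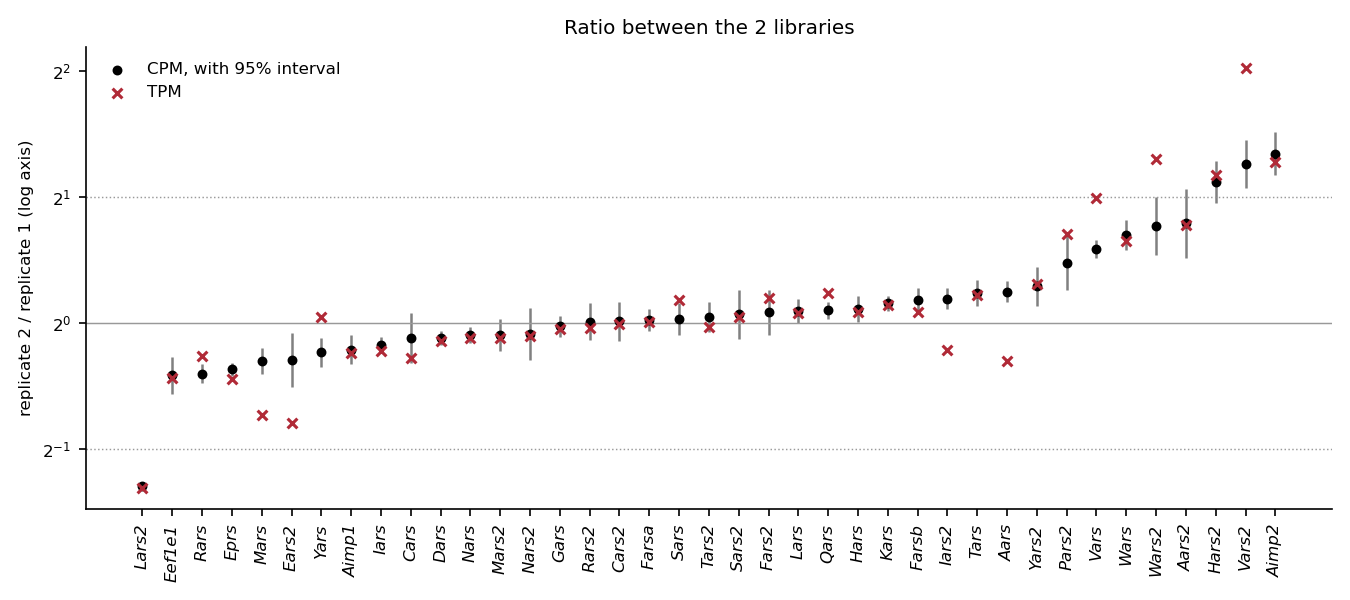
Ratio of replicate 2 to replicate 1 for 39 members on a log axis, in CPM with a 95% exact binomial interval (dots and lines) and in TPM (crosses). Lars2 lies at the low end at 0.409, and Vars2 and Aimp2 at the high end at 2.40 and 2.54 in CPM, with the cross of Vars2 at 4.08.

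Several members overlap other genes, which matters because the strand used in counting is not given in the sources used here. In GENCODE M21, 16 members share exon bases with a gene on the opposite strand. The share of all protein-coding genes with such an overlap was not computed, so this count is not shown to be particular to the family. Hars and Hars2, which lie head to head, share 195 bases, Aimp2 shares 487 with Eif2ak1, Iars2 shares 2034 with Rab3gap2 and Cars2 shares 422 with Naxd. Levels of these members are uncertain to the extent that reads of the partner were counted in them. Eif2ak1 was at 14.2 and 13.6 TPM, and the part of overlapping reads in the differences of Aimp2 and Hars2 between the libraries was not tested. Aars shares 1326 bases with Exosc6 on its own strand, and Exosc6 had no matching row.

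Promoter sequence was examined because a set of cytosolic synthetase genes is known to be induced by ATF4 under amino acid shortage, through a composite C/EBP-ATF element. RefSeq promoters on GRCm38.p6, from 250 bases before to 50 bases after the annotated start, matched 30 of the 40 members. Among those with no entry were Cars, Hars, Hars2, Lars, Nars, Pars2, Rars, Vars and Wars. The core TGATGNAA, read on both strands, was present in 5 of the 30 (16.7%) and in 4.51% of 27025 genes. These 27025 were all genes with a promoter entry, members included, and were not limited to protein-coding or expressed genes. The 5 members with the core were all cytosolic enzymes, of 13 matched, and none of the 14 matched mitochondrial genes held it. The form TGATGCAA, contained in the former, occurred in 1.03% of genes, and its count over the members is not given here. For each of the 5 genes 1 match is shown, not every match, with 11 flanking bases on each side and the motif in capitals, on the strand of the gene, where TTGCATCA and TTTCATCA are the motif read from the other strand.
Yars, chr4:129189895-129189924, plus strand: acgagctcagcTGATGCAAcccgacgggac
Gars, chr6:55037960-55037989, plus strand: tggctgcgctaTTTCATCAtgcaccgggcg
Aars, chr8:111033840-111033869, plus strand: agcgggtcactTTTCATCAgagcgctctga
Iars, chr13:49682126-49682155, plus strand: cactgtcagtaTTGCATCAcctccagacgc
Tars, chr15:11399655-11399684, minus strand: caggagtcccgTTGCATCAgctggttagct
The matches shown began within 30 bases of the annotated start, before it in Gars and Tars and after it in Yars, Iars and Aars. Aars also held a match farther from its start that is not shown. The 5 genes stood between 17.9 TPM (Aars) and 37.2 TPM (Iars) on average, at or below the cytosolic median of 38.5 TPM. Other motifs searched on both strands were that of the factor NRF1, in 6 members (5.19% of genes) and in 0 for its form with T at the variable centre base (1.07%), CACGTG in 5 (8.09% of genes), CCGGAAGT in 4 (4.31%) and TGACGTCA in 0 (2.03%). A match is a stretch of letters in this window and no evidence that a factor binds there.

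Genes known to respond to ATF4 were expressed in part. Of 12 listed genes, 9 reached 1 TPM in both libraries. Atf4 itself stood at 99.8 and 92.9 TPM, and the serine synthesis genes Phgdh and Psat1 at 89.8 and 101 TPM and at 45.6 and 44.2 TPM. Shmt2, a mitochondrial serine hydroxymethyltransferase, was at 48.2 and 71.6 TPM. Chac1 had 1 count in replicate 1 and 0 in replicate 2, and Trib3 had 0 in both. Of 8 amino acid sensing genes matched, 7 reached 1 TPM in both. The highest on average were Mtor (12.2 and 25.1 TPM), Gcn1l1, a partner of the kinase that binds uncharged tRNA (13.8 and 21.4 TPM), Rragc (13.0 and 19.2 TPM) and Sesn1 (15.1 and 14.9 TPM). In replicate 1 Mtor was below Gcn1l1, Rragc and Sesn1. Its counts, 2665 in replicate 1 and 2445 in replicate 2, did not show the rise seen in its TPM. Of 11 amino acid transporter genes, 9 reached 1 TPM in both. The highest were Slc1a5, a glutamine carrier, at 57.5 and 54.8 TPM, Slc38a2 at 38.1 and 49.5 TPM, Slc7a5, which carries leucine and other large neutral amino acids, at 30.4 and 30.6 TPM, and Slc38a1 at 29.6 and 30.2 TPM.

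The neighbours of the synthetases in translation were all expressed. All 5 cytosolic elongation factor genes reached 1 TPM in both libraries, and Eef1a1, which delivers charged tRNA to the ribosome, stood at 5569 and 6101 TPM, far above every cytosolic synthetase. Eef1b2, Eef1g and Eef2 followed at 856, 534 and 441 TPM on average. All 10 mitochondrial factors reached 1 TPM in both, led by Tufm, the mitochondrial elongation factor Tu, at 40.4 and 48.2 TPM, with Tsfm, Gfm1 and Guf1 at 20.5, 18.9 and 17.1 TPM on average. Of the 11 genes linked to the products of the synthetases, all reached 1 TPM in both, and the highest were Dalrd3, Aarsd1, Gatc and Dtd1 at 48.5, 34.0, 23.6 and 17.0 TPM on average. All 13 matched genes of nuclear tRNA modification and export did so too, led by Nsun2, Trmt1, Pus7 and Pus1 at 59.9, 47.8, 21.1 and 20.8 TPM.

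The order of the cytosolic synthetase genes by level differed from the order of their amino acids by use in the proteins that the cells' messages encode. Amino acid use was computed from the coding sequences of 18319 transcripts of 11836 genes, weighted by their TPM, which covered 94.8% and 95.2% of coding TPM. Leucine was used most, at 9.07% of residues, and its enzyme gene Lars, at 17.1 TPM on average, had the lowest TPM per percent of use, 1.88. Serine (7.24% and Sars at 15.2 TPM) and alanine (7.28% and Aars at 17.9 TPM) were likewise frequent residues with low enzyme genes. At the other end glutamine made 4.48% of residues and Qars stood at 125 TPM, or 28.0 TPM per percent. Tryptophan, the rarest at 1.02%, had its enzyme gene Wars at 16.9 TPM, close to Lars. Over the 20 amino acids the Spearman correlation between use and TPM was 0.125. The Pearson correlation of log2 use with log2 TPM was 0.314. Both are given as a description, since all points come from the same libraries and Eprs enters for both glutamate and proline. With synthetase TPM on protein-coding transcripts alone the Spearman correlation was 0.226, and Qars was then at 21.98 TPM.

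**Figure D5:**
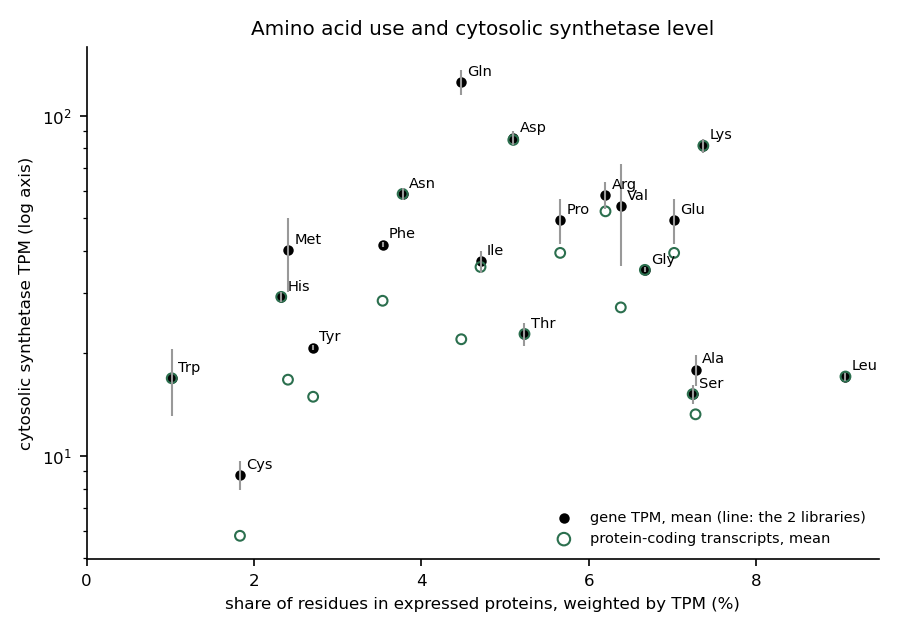
Share of each amino acid in the encoded proteins, weighted by TPM, against the TPM of its cytosolic synthetase gene on a log axis. Filled points are means over the libraries with a line between the 2 libraries, and open circles are protein-coding transcripts alone. Leu at 9.07% lies at 17.1 TPM and Gln at 4.48% lies at 125 TPM.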

How the data were processed

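Total RNA of 2 libraries of pooled progenitors was quantified by the authors against annotation M4 on mm10, per the text files that accompany the deposited tables. Which aligner, counting tool and strand setting were used is not given in the sources used here. The deposited expected counts are estimated read counts per gene or transcript, the deposited TPM and FPKM values correct them for effective length, and the deposited percent values give each transcript's share of its gene's TPM. Symbols and transcript types came from GENCODE M21 by Ensembl identifier without version (42462 of 43346 Ensembl rows matched). Precision follows the total of 40509954 and 35675702 counts, and intervals and zero-count limits (3 counts) cover counting error only, as no molecular identifiers are named.

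The members and gene lists were chosen with earlier results of these data known, and the promoter motifs after values were seen. All members are named except 1, which is not reported here by name and is left out of the figures, and of each pathway list the 4 highest by mean TPM, with other genes of these lists named after their values were seen. Adat3 had no matching row, and Gcn1 and Dnmt2 were matched under their listed older or newer symbols, Gcn1l1 and Trdmt1. No reference proteins were used: amino acid use came from M21 coding sequences of the deposited transcripts. Library ratios are on log2(TPM + 1), or CPM (counts scaled to the library total) with exact binomial intervals. The interval and the 2-fold call in CPM were run on simulated counts with counting error only. That run checks the computation, and it covers neither the TPM ratios nor other spread between libraries. TMM factors (edgeR 4.0.16) and DESeq2 1.42.0 size factors, run under R 4.3.3 on rounded expected counts, served as alternative scalings only. Scripts ran in Python 3.11.15 with pandas 2.3.3, scipy 1.17.1, numpy 2.4.6, Biopython 1.88 and matplotlib 3.10.9, and blastn 2.17.0 compared sequences. Alternatives also covered units, filters, pseudocounts, each library left out and rescaled TPM. The restriction to coding transcripts, posterior transcript shares, plain CPM, leaving out Qars and other scalings of the tRNA modification list were added after seeing the data.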

Additional observations from a re-analysis of the deposited data

How the results depend on the processing

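Of 62 alternative values computed, 46 stayed within the spread between libraries or within 1.5 times the count reported, 16 moved and 0 reversed. The cytosolic median of 38.5 TPM became 52.7 after rescaling TPM without Gm42418, Gm26917, Mir6236 and Lars2, 28.1 in FPKM, 56.4 in CPM and 26.2 TPM on coding transcripts, and 34.5 to 37.4 with each library left out. The mitochondrial median of 9.60 TPM became 13.1 after rescaling, 15.7 in CPM and 6.06 TPM on coding transcripts, and 8.65 to 12.7 with each library left out. These are changes of unit or total, or of the transcripts counted. The ratio of the medians, 4.01, ranged from 2.72 without replicate 1 to 4.32 without replicate 2, and from 3.60 to 4.33 over the other alternatives. Without a filter on low values, members over 2-fold between libraries went from 3 to 5, by adding Vars2 and Wars2. With TMM factors Hars2 dropped to 0.98 log2 units, which left 2. Members at 1 TPM or more on coding transcripts were 38 of 40, without Ears2 and Vars2. The rank correlation of amino acid use with synthetase TPM was 0.107 to 0.117 with each library left out, 0.0805 without ribosomal protein genes, 0.226 on coding transcripts and 0.168 without Qars. No paired analysis was possible because there is 1 group. Counts per member were 183 or more in each library, but single transcripts can rest on few reads, as Vars2-201 does with 152.5 and 10.05 expected counts.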

Other observations

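The order of the members depended on how length enters the unit. Mars2, the mitochondrial methionyl enzyme, has a single deposited transcript of 11294 bases and stood 39th of 40 members by TPM, at 3.49 and 3.22 TPM. By CPM, with 1140 and 940 counts, it stood 23rd. The ratio of Mars to Mars2 was 11.96 in mean TPM and 1.53 in CPM. On protein-coding transcripts alone Qars went from 2nd to 17th place and Vars2 from 32nd to 40th. Lars, with 1 coding transcript, went from 25th to 19th.

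All 13 matched genes of nuclear tRNA modification and export had a higher TPM in replicate 2 than in replicate 1, from Pus7 at 21.1 and 21.2 TPM to Trmt1 at 36.5 and 59.1 TPM. This held for all 13 in CPM too, but with TMM factors or DESeq2 size factors 8 of 13 were higher in replicate 2, and Pus7, Xpot, Trmt6, Trmt5 and Trdmt1 were lower. By TPM cytosolic synthetases were divided, with 11 of 20 higher in replicate 2, and so were the mitochondrial ones without Lars2, with 8 of 16. Among the 9782 protein-coding genes of 1 TPM or more in both libraries, 5347 were higher in replicate 2 by TPM. The summed level of late neutrophil markers was 86.7 TPM in replicate 1 and 5.20 TPM in replicate 2, and its part in these differences was not tested.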
